A study of Homo sapiens with 12 samples.

Results

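The 11q13 segment of chromosome 11, from chr11:68500000 to chr11:72500000 on the GRCh38 build, holds the genes CCND1, FGF19, ANO1, FADD, CTTN and SHANK2. It was examined through the accessible-chromatin peaks of 12 ATAC-seq libraries, and a member is a region merged from all peaks that start and end inside the segment and overlap by at least 1 bp. The segment held 3627 such regions of 2361798 on chromosomes 1 to 22, X and Y. Segment and borders were chosen by the local background behind its peaks, which is raised in KYSE510, so the values that set the lines apart are a description and carry no test. ATAC-seq inserts sequencing adapters into accessible DNA with a transposase, and peaks mark where insertions pile up. The lines were KYSE150 and KYSE510, both established human oesophageal squamous carcinoma lines grown in the same serum-supplemented medium. The treatments were control and silencing of HCP5, a long non-coding RNA, and each of the 4 groups of line and treatment had 3 libraries. The labels do not give how HCP5 was silenced, what the controls received or whether replicates were separate cultures, so p-values measure only the spread between these libraries, which may be technical. The level of HCP5 RNA cannot be read from peak lists.

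Segment 11q13 around CCND1 is known as one of the stretches most often amplified in oesophageal and other squamous carcinomas. CCND1 encodes cyclin D1, which with its partner kinases phosphorylates the retinoblastoma protein and lets cells enter S phase. CTTN encodes cortactin, which binds and stabilises branched actin networks at the cell edge. FADD is an adaptor of death receptors, ANO1 a calcium-activated chloride channel, SHANK2 a synaptic scaffold, and FGF19, FGF4 and FGF3 are secreted growth factors. Copy number was not measured here.

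Promoter sequences are shown for 5 genes whose promoter peaks were taller in KYSE510 and for ANO1, where hardly any peak was called at the listed promoter. FADD, PPFIA1, LTO1 and ANO1 belong to the central gene list, whereas NADSYN1 and DHCR7 were added after their values were seen. Each sequence runs from 250 bases before to 50 bases after the start of transcription, 5′ to 3′ on the strand of the gene, as given by RefSeq for GRCh38.p14. Capitals mark a CCAAT box (CCAAT) or a GC box (GGGCGG), on either strand. The positions are chr11:70203046-70203345 for FADD, chr11:70270440-70270739 for PPFIA1, chr11:69675304-69675603 on the minus strand for LTO1, chr11:69985657-69985956 for ANO1, chr11:71452953-71453252 for NADSYN1 and chr11:71448344-71448643 on the minus strand for DHCR7.
FADD promoter: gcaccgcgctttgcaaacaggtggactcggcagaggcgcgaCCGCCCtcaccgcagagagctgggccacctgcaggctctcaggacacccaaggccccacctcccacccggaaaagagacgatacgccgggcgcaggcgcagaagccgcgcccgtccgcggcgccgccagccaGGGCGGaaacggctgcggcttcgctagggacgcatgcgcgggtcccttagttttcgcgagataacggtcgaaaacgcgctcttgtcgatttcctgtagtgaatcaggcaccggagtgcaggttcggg
PPFIA1 promoter: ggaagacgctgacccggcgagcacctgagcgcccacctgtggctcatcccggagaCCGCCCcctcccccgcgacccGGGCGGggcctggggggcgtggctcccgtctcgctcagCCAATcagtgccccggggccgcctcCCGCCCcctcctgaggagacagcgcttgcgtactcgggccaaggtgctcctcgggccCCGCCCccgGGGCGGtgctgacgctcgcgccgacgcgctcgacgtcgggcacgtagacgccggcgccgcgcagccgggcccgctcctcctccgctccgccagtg
LTO1 promoter: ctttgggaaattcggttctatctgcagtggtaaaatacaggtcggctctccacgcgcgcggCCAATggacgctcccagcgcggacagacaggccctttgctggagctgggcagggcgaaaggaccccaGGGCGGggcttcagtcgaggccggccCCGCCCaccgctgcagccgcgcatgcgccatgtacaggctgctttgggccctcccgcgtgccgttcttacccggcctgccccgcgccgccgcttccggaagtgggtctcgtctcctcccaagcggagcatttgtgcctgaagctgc
ANO1 promoter: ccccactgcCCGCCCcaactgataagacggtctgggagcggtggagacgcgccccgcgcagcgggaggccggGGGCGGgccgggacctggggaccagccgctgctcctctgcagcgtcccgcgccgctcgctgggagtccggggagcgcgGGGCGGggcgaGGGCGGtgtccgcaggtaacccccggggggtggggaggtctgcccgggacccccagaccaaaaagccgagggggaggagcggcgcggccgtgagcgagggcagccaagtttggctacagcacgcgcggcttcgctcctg
NADSYN1 promoter: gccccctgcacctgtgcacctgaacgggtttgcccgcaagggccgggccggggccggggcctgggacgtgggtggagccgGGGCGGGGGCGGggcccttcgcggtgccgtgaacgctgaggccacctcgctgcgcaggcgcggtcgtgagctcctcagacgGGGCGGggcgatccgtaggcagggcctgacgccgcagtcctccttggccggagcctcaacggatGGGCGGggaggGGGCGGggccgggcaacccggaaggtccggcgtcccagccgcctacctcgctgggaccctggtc
DHCR7 promoter: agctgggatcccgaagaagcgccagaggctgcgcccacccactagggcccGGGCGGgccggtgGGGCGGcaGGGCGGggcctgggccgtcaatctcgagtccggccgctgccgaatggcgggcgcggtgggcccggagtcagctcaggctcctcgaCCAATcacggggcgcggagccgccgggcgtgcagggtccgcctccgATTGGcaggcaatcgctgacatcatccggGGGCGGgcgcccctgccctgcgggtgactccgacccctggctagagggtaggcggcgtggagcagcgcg
The 6 sequences are rich in G and C, from 66.7% at FADD to 77.7% at PPFIA1. The median was 58.7% over all 35116 promoters in the table and 60.3% over the 35 of the segment. All 6 sequences held at least 2 GC boxes. At least 1 GC box was found in 45.0% of all promoters of this length and in 62.9% of the 35 in the segment. DHCR7 has another entry in the table, chr11:71448994-71449293 at its outermost start, with 57.0% G and C, no GC box and no peak in any library. The entry of CPT1A, whose region was also called in KYSE510 alone, has 50.0% G and C and no GC box. CCAAT boxes were present at PPFIA1, LTO1 and DHCR7 and occur in 34.6% of all promoters. None of the 6 held an E-box (CACGTG, in 7.26% of all promoters), an AP-1 motif (TGAGTCA, in 4.95%) or a TATA box (TATAAA, in 11.5%), searched on both strands. Of the 32 genes listed for the segment, 19 had an entry in the RefSeq table. CCND1, CTTN, FGF19, FGF4 and SHANK2 were among those without one, and their regions are those within 1 kb of either end of the gene.

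Peak lists of the lines differed in length. KYSE150 libraries held 546453 to 629921 peaks and KYSE510 libraries 115761 to 135841, and no counts of reads are given, so the depth is unknown. The lowest deposited peak height was 1 in KYSE150 and 2 in KYSE510. Among markers of squamous epithelium, promoter regions of KRT5 and DSG3 were called in all 12 libraries, those of SOX2 in all 6 of KYSE510 and 1 of KYSE150, and those of PKP1 in all 6 of KYSE150 and 1 of KYSE510. KRT6A was called in 11 libraries, KRT14 in 2 of each line and TP63, at the listed promoter, in 2 KYSE150 libraries with a height of 1. Of 3 blood markers, PTPRC was called in 1 library, CD3E in 5 of KYSE150 and 3 of KYSE510 with heights up to 4, and SPI1, at a gene end, in all 12. Of 5 fibroblast and endothelial markers, COL1A2, TWIST1 and PECAM1 had a region in all 6 KYSE150 libraries, not the same one in each, with heights up to 5, 9 and 1, and in no KYSE510 library. PDGFRB and CDH5 were called in 1 and 2 KYSE510 libraries only.

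Across the segment, KYSE510 had fewer but taller peaks than KYSE150. Peaks in the segment numbered 954, 866 and 927 in the KYSE150 controls and 1021, 846 and 956 after silencing. In KYSE510 they numbered 395, 368 and 345 in the controls and 365, 368 and 356 after silencing. As a share of the list of each library, the segment took 14.9 to 16.3 of every 10000 peaks in KYSE150 controls and 29.3 to 29.9 in KYSE510 controls. All KYSE510 libraries, silenced ones included, lay above all KYSE150 libraries on this scale. The median peak height in the segment was 1 in every KYSE150 library, the same as over the other autosomes, and 9 or 10 in every KYSE510 library, where the other autosomes had 4 or 5.

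The local background is the level the peak caller expected at a peak, solved from its height and fold enrichment as (height + 1) / fold enrichment - 1. It was divided by the value shared by the largest number of peaks of the library, its floor, which lay between 0.0826 and 0.108 in KYSE150 and between 0.180 and 0.217 in KYSE510. In KYSE510 controls the median relative background of the segment was 7.37, 7.15 and 7.24, a mean of 7.25 ± 0.111 (SD, n = 3). After silencing it was 6.89, 7.98 and 7.67. The rest of chromosome 11 stood at 1.66 to 1.89 in the same 6 libraries and the other autosomes at 1.57 to 1.78. In KYSE150 controls the median was 1 in all 3 libraries, and after silencing 1.08, 1.11 and 1.21. The share of segment peaks above 2 times the floor was 83.5 to 87.9% in KYSE510 and 8.28 to 16.4% in KYSE150, against 38.1 to 48.1% and 8.52 to 9.24% on the rest of chromosome 11.

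A peak contributes to its own local background, and KYSE150 lists are mostly peaks of height 1. Among peaks of heights 10 to 19, the median relative background of the segment was 9.85 to 11.2 in KYSE510, where the other autosomes had 3.41 to 3.79. For the same heights it was 4.93 to 6.54 in KYSE150, where the other autosomes had 5.35 to 6.54. At matched heights the segment therefore stood above the other autosomes in all 6 KYSE510 libraries and within their range or near it in KYSE150. The ratio of the lines in the controls was 7.25 over all peaks, with an SD of 0.0957 over all pairs of a KYSE510 and a KYSE150 library. These pairs share libraries, so the SD is not a spread between independent replicates. At these heights the ratio was 1.98. The other autosomes were lower in KYSE510 controls there, with 3.41 to 3.79, than in KYSE150 controls, with 5.45 to 5.53.

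The raised background in KYSE510 was not level along the segment. In windows of 100 kb it was close to the floor at the centromeric end, with medians over the libraries of 1.03 in the first window and 1.21 from 68.6 Mb. The first window held no peak in KYSE510 control 1 and control 2 and at most 2 in each of the other 4 libraries. It was 2.90 from 68.8 Mb, reached 10.96 in the window from 69.6 Mb that holds CCND1, and fell back to 3.60 and 4.61 in the windows on either side. From 70.3 to 71.6 Mb, over CTTN, SHANK2 and their neighbours, every window but 1 had a median between 10.79 and 22.49. The exception was 7.49 from 70.9 Mb, inside SHANK2.

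The highest window began at 71.4 Mb and holds DHCR7, the enzyme of the last step of cholesterol synthesis, and the start of NADSYN1, an NAD synthetase. Its median background was 22.49, with 21.8 in the lowest and 24.8 in the highest library. Background then dropped to 11.63 in the next window, 5.51 from 71.6 Mb, 1.55 from 71.7 Mb and 1 from 71.8 Mb. Of the 40 windows, 21 had a KYSE510 median of at least 5 and 13 of at least 10, and none did in KYSE150. At the borders of the segment the windows just inside and just outside stood at 1.03 and 2.21 on the centromeric side and at 1.08 and 1.22 on the telomeric side. Windows of up to 1 Mb outside the segment were not flat in KYSE510 either and reached medians of 4.60 from 68.1 Mb and 3.91 from 72.8 Mb.

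**Figure D1:**
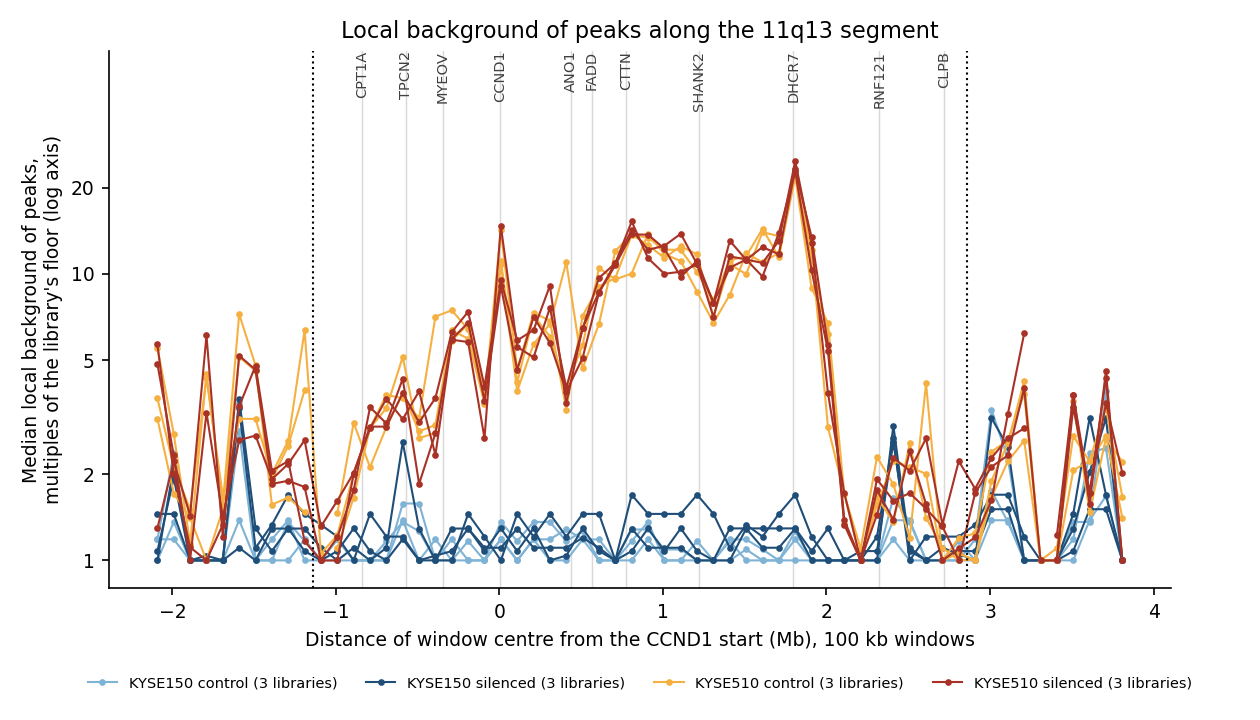
Median local background of peaks in 100 kb windows (multiples of the floor of the library, log axis) against distance from the CCND1 start in Mb, 1 line per library, with dotted lines at the borders of the segment and grey lines at gene midpoints. All 6 KYSE510 libraries rise together to a median of 22.49 at DHCR7 and fall to 1 by 71.8 Mb, whereas no KYSE150 window of the segment has a median over the 6 libraries of 5 or more.

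Peaks inside single genes broadly followed this course, given as the median of the KYSE510 libraries with a peak. Relative background was 1.03 in PPP6R3, a phosphatase regulatory subunit at the centromeric border, and 1.85 in TESMIN. It was 3.91 in CPT1A, which carries long-chain fatty acids into mitochondria, and 3.61 in TPCN2, a lysosomal cation channel. For CPT1A the KYSE510 libraries ranged from 1.84 to 11.6. MRGPRF and MYEOV, each with 1 peak, had 12.3 and 29.0. Higher values were found for CCND1 with 18.5, LTO1 with 10.8, FADD with 10.2, CTTN with 11.5 and SHANK2 with 11.7. The CTTN median pooled controls at 8.66 to 10.6, with 7 peaks each, and silenced libraries at 12.5 to 44.6, with 4 peaks each. This difference between treatments was not tested. ANO1 and PPFIA1, a liprin scaffold protein, were lower at 5.58 and 6.29. DHCR7 had 47.2 and NADSYN1 22.4. Beyond the drop, RNF121, NUMA1 and CLPB had 1.73, 1.78 and 1.60, whereas LAMTOR1, ANAPC15 and INPPL1, with 1 peak in most libraries, had 3.28, 6.23 and 3.12. In KYSE150 the corresponding medians were 1 to 1.96 for PPP6R3, TESMIN, CPT1A, ANO1, PPFIA1, SHANK2, DHCR7, NADSYN1, RNF121, NUMA1 and CLPB. Some genes with few peaks had more in KYSE150 too, such as CCND1 with 7.33, FADD with 4.09, MYEOV with 17.8 and ANAPC15 with 9.37, and others, such as GAL with 1.16 and FOLR1 with 1.05, did not.

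Heights at several promoters or gene ends followed a similar course, with exceptions given below at ANO1, FGF3, FGF4 and the SHANK2 start. At CTTN the region chr11:70399396-70400165 had heights of 25, 13 and 18 in KYSE150 controls and 229, 188 and 180 in KYSE510 controls. These are means of 18.7 ± 6.03 and 199 ± 26.3 (SD, n = 3), a ratio of 10.7. Fold enrichment over the local background differed less, with a median of 10.3 over the KYSE150 and 13.3 over the KYSE510 libraries. A companion region at the start of CTTN, chr11:70397723-70398645, had heights of 12, 8 and 13 in KYSE150 controls and 120, 89 and 89 in KYSE510 controls. All KYSE510 libraries were above all KYSE150 libraries at both regions.

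PPFIA1 had control heights of 27, 18 and 16 in KYSE150 and 183, 134 and 137 in KYSE510 at chr11:70269866-70270865, a ratio of 7.44. FADD had 10, 7 and 7 against 25, 26 and 23 at chr11:70202905-70203744, a ratio of 3.08. LTO1, which is needed to fit iron-sulphur clusters into a ribosome recycling factor, had 4, 6 and 4 against 48, 27 and 23, a ratio of 7. No height of 1 line fell within the range of the other line at any of these promoters. The sequences above are those of PPFIA1, FADD and LTO1.

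NADSYN1 had control heights of 17, 16 and 11 in KYSE150 and 209, 152 and 167 in KYSE510, a ratio of 12. At DHCR7, whose outermost start lies 4160 bp away on the opposite strand, no peak was called in any KYSE150 library, whereas KYSE510 controls had heights of 292, 268 and 261. The fold enrichment there was a median of 13.8 in KYSE510. CPT1A had a similar pattern at a lower level, with no KYSE150 peak and KYSE510 control heights of 27, 28 and 30. These promoter regions were called in all 6 KYSE510 libraries and in no KYSE150 library, although KYSE150 had 2 to 8 peaks inside DHCR7 and 19 to 28 inside CPT1A.

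CCND1 itself was marked by several modest regions. At its start, chr11:69640996-69641376, a peak was called in 3 of 6 KYSE150 libraries with heights of 3 to 8. KYSE510 controls had heights of 36, 22 and 27 there, and silenced libraries 17, 12 and no peak. Upstream of the start, chr11:69638954-69639510 was called in all 12 libraries, with control heights of 6, 8 and 9 in KYSE150 and 48, 36 and 34 in KYSE510. Inside the gene, chr11:69643020-69643573 had 28, 21 and 17 in KYSE510 controls and 22, 20 and 28 after silencing. Just beyond the other end, chr11:69654587-69655383 had 22, 19 and 21 in KYSE510 controls, 21, 19 and 21 after silencing, and no peak in KYSE150. The silenced KYSE510 libraries lay below the controls at the start and overlapped them at the other 3 regions. The start region was called in only 5 of 6 KYSE510 libraries, so its difference between treatments was not tested. Among KYSE510 regions of the genome called in all 6 libraries, 7.23% had all control heights above all silenced heights.

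The growth factor genes had few peaks. FGF19 had no region called in all 6 libraries of a line, and the regions called most often were each found in 5 libraries. These were chr11:69697166-69697677, in 4 KYSE510 libraries with heights of 6 to 9 and 1 KYSE150 library, and chr11:69704489-69705254, in 3 KYSE510 libraries with heights of 6 to 12 and 2 of KYSE150. FGF4 had regions in at most 1 KYSE510 library each, and no region overlapped the FGF3 promoter. The listed ANO1 promoter shown above, with 4 GC boxes, carried a peak in 2 KYSE150 libraries, both of height 1, and in no KYSE510 library. It lies inside the gene, whose outermost start at chr11:69965997 was not examined as a promoter. The region chr11:69961928-69962780, 3217 bp outside ANO1, was called in all 12 libraries, with heights of 1 to 4 in KYSE150 and 16 to 22 in KYSE510. Within the span of ANO1, 12 regions were called in all 6 KYSE510 libraries and 5 in all 6 KYSE150 libraries. The tallest, chr11:70159286-70160469, had control heights of 28, 24 and 20 in KYSE150 and 131, 136 and 143 in KYSE510.

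SHANK2 spans 785 kb, and 22 regions inside it were called in all 6 KYSE510 libraries, against 10 in all 6 KYSE150 libraries and 7 in all 12. Its start region, chr11:71253106-71253725, was low, with control heights of 11, 13 and 11 in KYSE510 and 4 in the only KYSE150 control that had a peak. Inside the gene, chr11:70755439-70756052 had control heights of 3, 6 and 7 in KYSE150 and 85, 54 and 72 in KYSE510. By contrast, chr11:70482082-70482751 had 10, 17 and 27 against 35, 30 and 40. Height ratios thus varied between regions of 1 gene.

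The tallest region of the segment in KYSE510 lay between genes, 45935 bp beyond SHANK2, at chr11:71299169-71299932. Its control heights were 31, 23 and 16 in KYSE150 and 416, 360 and 392 in KYSE510, a ratio of 16.7. Another region between genes, chr11:70233024-70234213 near FADD, was among the 5 tallest in both lines, with control heights of 18, 27 and 35 against 199, 172 and 156. Telomeric of NADSYN1, chr11:71614860-71615615 still had 13, 17 and 13 against 101, 83 and 122. The next region called in all 12 libraries, chr11:71786705-71787623, had 40, 29 and 37 against 47, 28 and 28, so the lines overlapped.

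Beyond that point heights in the lines were close or overlapped. NUMA1, which organises spindle poles, had control heights of 26, 37 and 27 in KYSE150 and 32, 23 and 22 in KYSE510. RNF121, a membrane ubiquitin ligase, had 13, 13 and 12 against 12, 8 and 3. The ratio of the lines was 1.05 at the median of the 7 telomeric genes with a value, a list that also includes NADSYN1 with its ratio of 12. PPP6R3, whose promoter lies just outside the centromeric border, had 28, 17 and 20 against 22, 24 and 19.

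**Figure D2:**
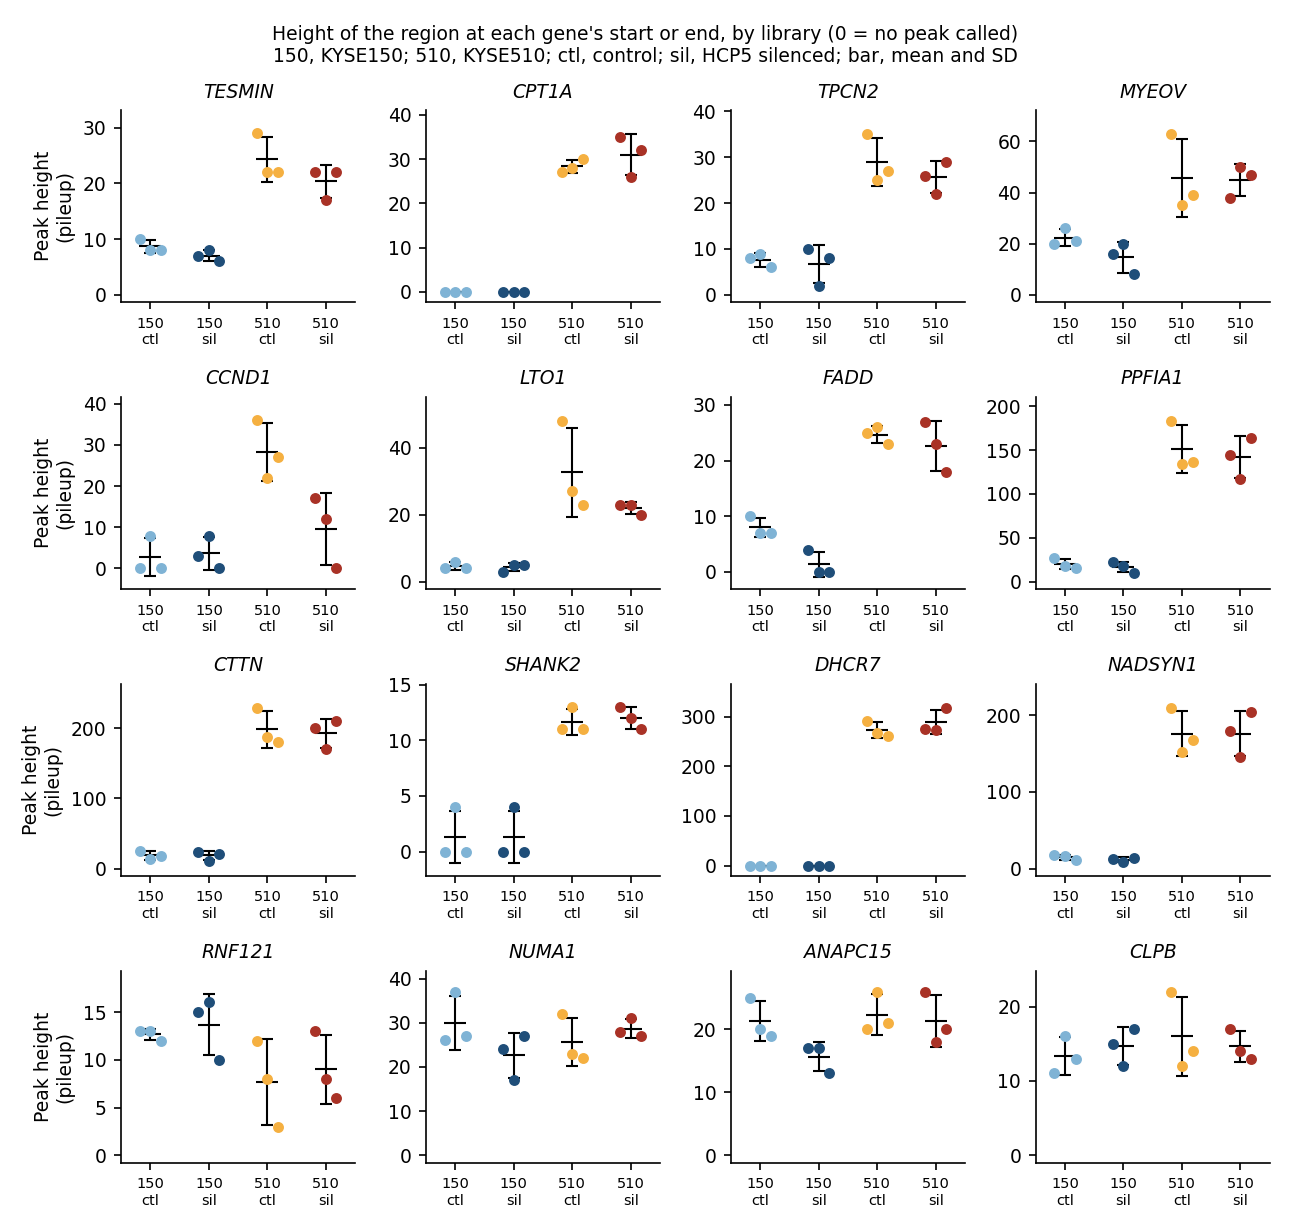
Peak height (pileup, linear axis from 0) at the start or end of 16 genes in centromeric to telomeric order, 1 point per library with the mean and SD of 3 libraries, where 0 means that no peak was called. KYSE510 points lie above KYSE150 points from TESMIN to NADSYN1, with CTTN at 170 to 229 against 11 to 25, except that 1 silenced KYSE510 library has no peak at the CCND1 start, and the lines overlap from RNF121 to CLPB.

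The comparison was extended to every region called in all 12 libraries, of which the segment held 63. That was 1.74% of its regions, where 1.2% of all regions of the genome were called in all 12. The median height ratio of KYSE510 over KYSE150 controls was 3.07 in the segment, against 1.36 over the 28270 such regions of the rest of the genome. Of the 63, 31 lay above the 90th percentile of the rest of the genome, a ratio of 3.17, where 10% of all regions tested did (2837 of 28333). Up to 71.7 Mb, a border set after the drop in background had been seen, the median ratio was 4.07 over 50 regions. Beyond it the median was 0.97 over 13 regions, of which none was above that percentile.

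**Figure D3:**
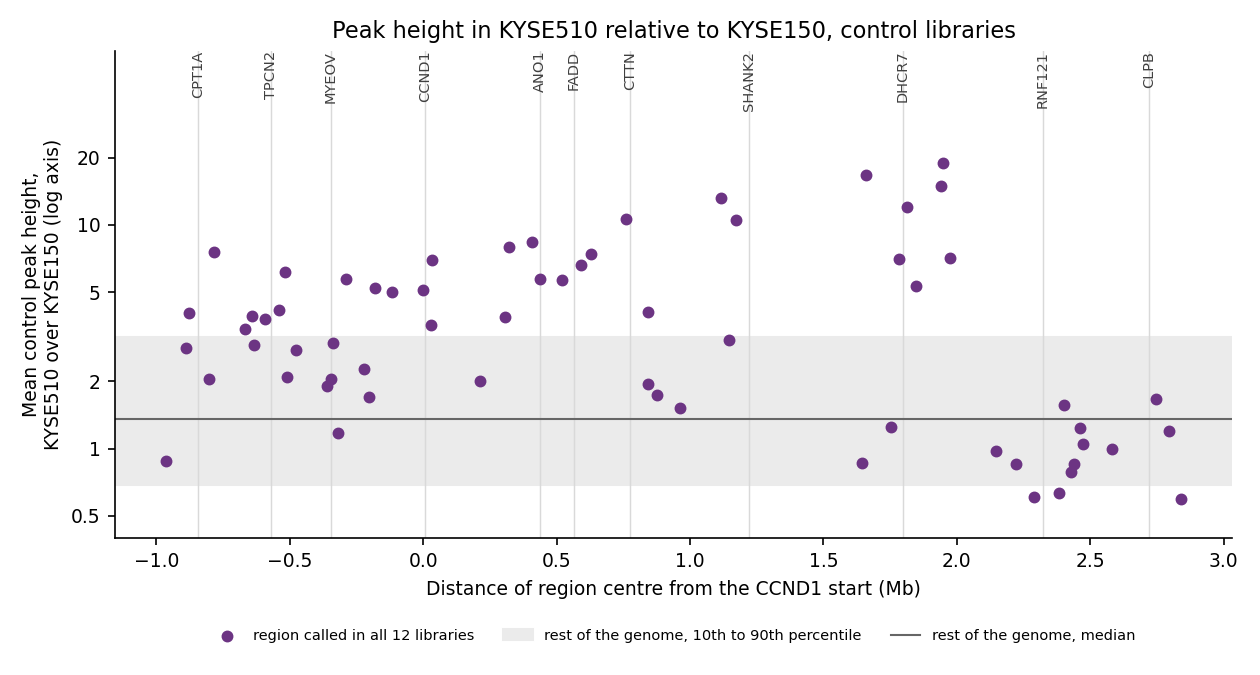
Ratio of mean control peak height, KYSE510 over KYSE150 (log axis), for the 63 regions called in all 12 libraries, against distance from the CCND1 start in Mb, with the median (line) and the 10th to 90th percentiles (band) of the rest of the genome and grey lines at gene midpoints. Ratios reach 18.8 near the telomeric drop and return to between 0.59 and 1.67 in the 13 regions beyond it.

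The lines also had different regions called. In the segment 159 regions, or 4.38%, were called in all 6 KYSE510 libraries, where 2.05% of all regions were. All 6 KYSE150 libraries shared 86, or 2.37%, where 1.94% of all regions did. Called in all 6 KYSE510 and no KYSE150 library were 9 regions, 0.248% of the segment and 0.0813% of all regions. They include the DHCR7 and CPT1A promoters, the far end of CCND1, a region in SHANK2 and one in RNF121. The opposite pattern was found at 2 regions, 0.0551% of the segment and 0.132% of all regions. One of these, chr11:69075397-69076143 in TPCN2, had heights of 10 to 16 in all KYSE150 libraries. These counts follow the length of the lists as well, and with heights of at least 3 required in both lines they were 48 and 1. These are 5.42 and 0.113% of the segment, where 3.45 and 0.285% of all regions were.

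A merged region spans all its overlapping peaks, so regions called in more libraries tend to be longer by construction. The 63 regions called in all 12 libraries had a median length of 770 bp, and 23.8% of them lay within 1 kb of a gene end. Over all 3627 regions the median was 200 bp and 4.05% lay near a gene end. No such values are given for the rest of the genome, so they do not set the segment apart. A share of 61.8% of the segment's regions was called in 1 library only, where 69.3% of all regions were.

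HCP5 silencing was compared with control within each line, on regions called in all 6 libraries, by limma on normal scores of the ranks of fold enrichment in each library, with Benjamini-Hochberg adjustment over all regions tested. No region of the segment passed an adjusted p of 0.05 in KYSE150, with 0 of 86 called where 0% of 45720 regions of the genome were. None passed in KYSE510, with 0 of 159 called where 0% of 48472 were. At an unadjusted p under 0.05 limma gave 2 higher and 2 lower in KYSE150, 2.33% each, where 2.61 and 2.72% of all regions passed. In KYSE510 it gave 1 higher and 3 lower, 0.629 and 1.89%, where 3.95 and 3.34% of all regions passed. On simulated data with planted changes, shifts of 1 score unit were recovered in 10% of regions in the KYSE150 simulation and 2.5% in the KYSE510 simulation. Shifts of 2 units were recovered in 98% and 94%, so changes of 1 unit were mostly out of reach. Every simulated region had the same noise, an SD of 0.419 in KYSE150 and 0.477 in KYSE510, and noisier regions were not simulated. With 3 libraries against 3, heights and counts cannot give an exact permutation p below 0.1.

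At CTTN the silenced minus control difference was 0.35 ± 0.40 score units (SE) in KYSE150 and -0.11 ± 0.31 in KYSE510, with adjusted limma p of 0.957 and 0.968. Heights after silencing were 24, 11 and 21 in KYSE150 and 200, 170 and 210 in KYSE510, overlapping the controls. PPFIA1 was at 0.06 ± 0.35 and -0.05 ± 0.32, and NADSYN1 at -0.20 ± 0.34 and -0.14 ± 0.32. DHCR7, tested in KYSE510 alone, was at -0.01 ± 0.32, with heights of 276, 274 and 317 after silencing. FADD was at -0.17 ± 0.33 in KYSE510. In KYSE150 FADD was not tested, and its height was 4 in 1 silenced library with no peak in the other two, below the controls at 7 to 10.

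The smallest unadjusted p in KYSE510 was at chr11:69630057-69630591, 10565 bp from CCND1. Heights were 16, 6 and 10 in the controls and 7, 4 and 5 after silencing, and the difference was -1.48 ± 0.49 with an adjusted limma p of 0.578. A region 35126 bp from FGF3, chr11:69854542-69855159, had a difference of 1.19 ± 0.44 (adjusted limma p 0.612), with heights of 5, 12 and 5 against 17, 10 and 16. In KYSE150 the smallest was at chr11:69166345-69167205, with 9, 10 and 13 in the controls and 5, 4 and 6 after silencing, a difference of -0.83 ± 0.31 (adjusted limma p 0.929). Its groups did not overlap. In KYSE150, 6 of 86 regions (6.98%) had all control heights above all silenced heights and 0 the reverse, where 6.47 and 2.26% of all regions did. In KYSE510 the counts were 11 (6.92%) and 7 (4.40%) of 159, where 7.23 and 6.16% did.

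**Figure D4:**
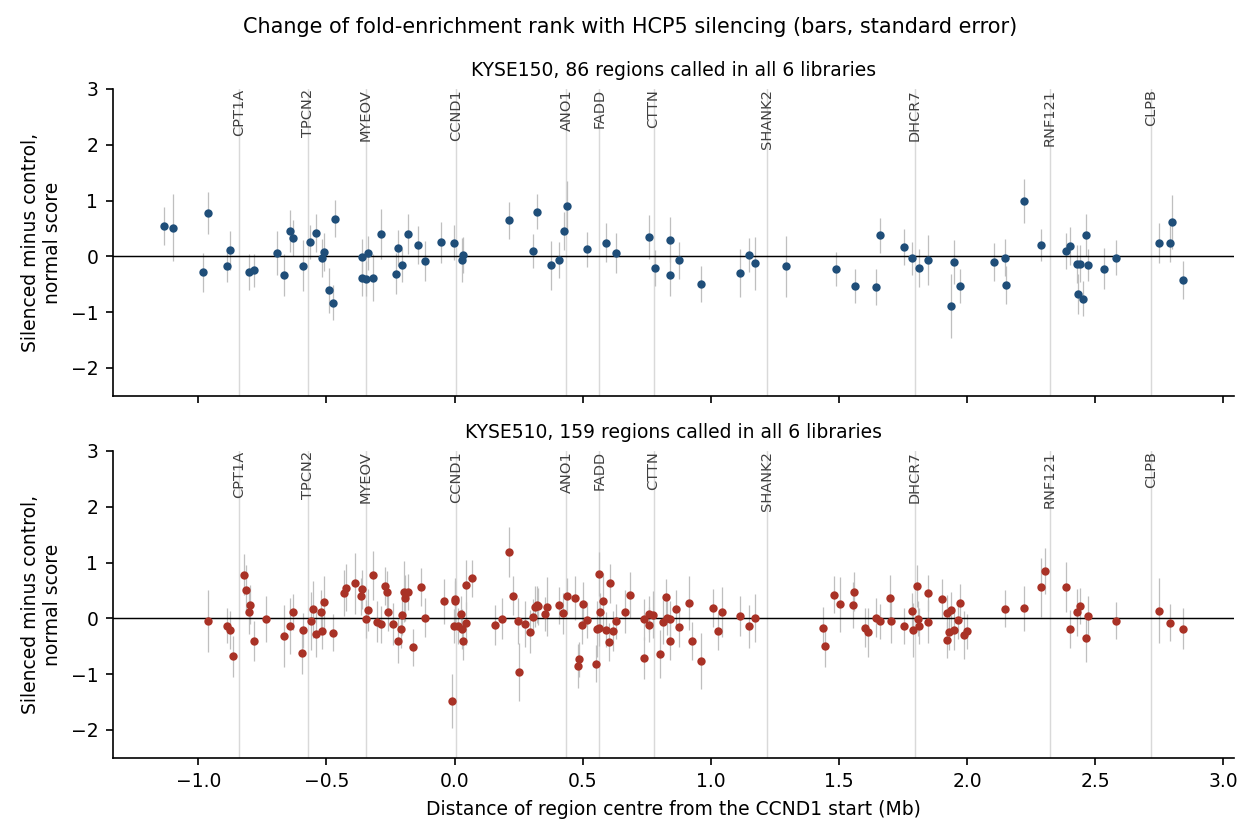
Silenced minus control change of the fold-enrichment rank (normal score, with standard error) for 86 regions in KYSE150 and 159 in KYSE510, against distance from the CCND1 start in Mb, with grey lines at gene midpoints. Changes scatter around 0 along the whole segment in both lines, and the lowest, -1.48 near CCND1 in KYSE510, did not pass the adjusted threshold.

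A difference between the lines in the response to silencing was tested as well. In the treatment-by-line term of limma, 0 of 63 regions were called, where 0.00353% of 28333 were, and 0 had an unadjusted p under 0.05 in either direction, where 2.85% were higher and 2.64% lower. CTTN gave -0.50 ± 0.53 and MYEOV 0.44 ± 0.46 for KYSE510 minus KYSE150, each with an adjusted limma p of 0.968.

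Silencing and control were also compared over the segment as a whole. The number of segment peaks was 916 ± 45.1 in KYSE150 controls and 941 ± 88.5 after silencing (SD, n = 3 each; two-sided exact permutation p = 0.7). For KYSE510 the values were 369 ± 25.03 and 363 ± 6.25 (SD, n = 3 each), at an exact permutation p of 0.8. Without silenced replicate 1 the KYSE150 difference went from 25.3 to -14.7 peaks, and without control replicate 1 the KYSE510 difference went from -6.33 to 6.50. Per 10000 peaks of a list the segment took 15.8 ± 0.748 in KYSE150 controls and 16.5 ± 2.68 after silencing (exact permutation p = 0.8). The KYSE510 values were 29.7 ± 0.309 for controls and 28.4 ± 2.29 for silenced libraries (exact permutation p = 0.4). The groups overlapped in all of these comparisons.

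The median relative background in KYSE150 was above 1 in all 3 silenced libraries and at 1 in all 3 controls, a mean difference of 0.13. It was 0.35 with an FDR of at most 0.05, 0.24 with heights of at least 3, 0.64 at heights of 10 to 19 and 0.08 over a narrower segment. At heights of 10 to 19 the groups overlapped, with 4.93 to 5.93 in controls and 5.39 to 6.54 after silencing. The other autosomes of KYSE150 had 5.45 to 5.53 in controls and 5.35 to 6.54 after silencing at these heights. The silenced mean of the segment was the higher one in 33 of the 40 windows. In some of these the gap was only rounding at the floor, as from 70.3 Mb with 1.00003 against 0.999944. Most windows up to 1 Mb outside the segment also had the higher mean after silencing, so the count is not particular to the segment. Over the whole of these lists, 62.3 to 69.3% of peaks were at the floor after silencing and 72.6 to 73.8% in the controls, and the part of this in the result was not tested. In KYSE510 the mean difference was 0.26, the groups overlapped, and the silenced mean was higher in 21 of 40 windows. Without silenced replicate 2 it was 0.03 and without silenced replicate 1 it was 0.58.

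Regions called in all 3 libraries of 1 treatment and none of the other were few. In KYSE150 there were 15 for control and 12 for silenced of 3390 regions (0.442 and 0.354%), where 0.301 and 0.253% of all regions were. Most rested on low peaks, and the tallest, chr11:69382071-69382781, had control heights of 4, 3 and 3. In KYSE510 there were 2 for control and 0 for silenced of 834 regions (0.240 and 0%), where 0.31 and 0.56% of all regions were. The 2 were chr11:69403451-69403880, with control heights of 10, 9 and 5, and chr11:69943043-69943398, 22599 bp from ANO1, with 7, 9 and 6.

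Genes outside the segment that act with its products were listed for comparison. Of 8 genes of the cyclin D and retinoblastoma pathway, 5 had a promoter region called in all 6 libraries of KYSE150 and 5 in all 6 of KYSE510, and 0 passed the limma threshold in either line. CCND2, another D-type cyclin, had control heights of 17, 11 and 12 in KYSE150 and 8 and 3 in the KYSE510 controls with a peak. CDK4, a partner kinase of cyclin D1, had 23, 21 and 31 against 23, 23 and 16. Of 5 genes of branched actin assembly all were called in all 12 libraries and 0 passed, with height ratios of 0.67 to 2.65 where CTTN had 10.7. No region of the genome passed in either line. The share called over all promoters is not given, so the counts of both lists describe these genes only. FGFR4, the receptor of FGF19, had 7, 8 and 9 against 20, 12 and 20. KLB, its co-receptor, had no region at the listed promoter.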

How the data were processed

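ATAC-seq peak lists of 12 libraries were used, 3 from each of 4 groups. The authors deposited 1 list per library, and the submitters' processing notes name Trimmomatic 0.36, Bowtie2 2.2.6, Picard 2.8.2, MACS2 2.1.1, bedtools 2.25.0 and the build GRCh38, with no settings. Per the file headers, each list gives the fold enrichment of a peak over its local background, a ratio computed by the authors. Per the file headers it also gives a p-value and an FDR per peak, and no deposited p-value was above 0.00987. The deposited pileup is the peak height, a whole-number signal at 1 position that was not normalised between libraries as far as the lists show. Peak lengths in the deposited lists were 200 bp or more. The lists hold no read counts, so depth and counting intervals cannot be given.

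Peaks of the autosomes, X and Y that overlapped by 1 bp were merged over libraries. The peak with the highest fold enrichment gave the height of a region in a library, and 0 stands for no peak. The floor of a library is the background, rounded to 4 decimals, that the largest number of its peaks share. Peaks within 1% of the floor made up 62.3 to 73.8% of KYSE150 lists but only 18.2 to 22.3% of KYSE510 lists. Treatments were compared per line, over regions called in all 6 libraries of the genome-wide table, by limma 3.58.1 (R 4.3.3; lmFit and eBayes) on normal scores of within-library ranks of fold enrichment. A treatment-by-line term was fitted over regions called in all 12 libraries. The threshold was a Benjamini-Hochberg adjusted p of 0.05. Single values per library were compared by two-sided exact permutation tests over 20 relabellings. Python 3.11.15 with numpy 2.4.6, pandas 2.3.3, scipy 1.17.1 and matplotlib 3.10.9 was used. Shifts planted in 200 simulated regions served to check the limma step.

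The segment, gene lists, tests and alternatives were chosen with earlier results of these data known. Genes named were those of the lists. Regions named were the promoter regions of these genes, the 10 highest regions of each line, the 5 with the smallest p, up to 3 called on 1 side only, and windows at the extremes and borders. Any others, such as regions inside genes, were named after their values were seen. A promoter region overlapped 250 bases before to 50 after the start in the RefSeq table or, with no entry, lay within 1 kb of either gene end. Replicate numbers are shared between groups but nothing in the labels says that they pair libraries. Alternatives were other thresholds on FDR and height, other merging and scaling, a narrower segment, a replicate block and leaving out each library.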

Additional observations from a re-analysis of the deposited data

How the results depend on the processing

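No region of the segment passed the limma threshold under any alternative, in either line or between lines. The smallest adjusted limma p over all these fits was 0.524 among the 14 single regions followed, whose changes kept their sign in all but 2 of 175 values, those of the FADD and SHANK2 starts in KYSE510. An FDR limit of 0.05 or 1e-05 turned the difference in segment peaks, silenced minus control, to -13 and -5 in KYSE150 and to 8.67 and 4.67 in KYSE510. Leaving out each library gave -14.7 to 72.8 peaks in KYSE150 and -18.5 to 6.50 in KYSE510. The share per 10000 peaks gave -0.334 to 2.2 in KYSE150. The KYSE510 difference in median relative background became -0.241 with the FDR limit of 0.05, -0.455 as a median over windows, -0.322 over the narrower segment and, in a setting chosen after seeing the data, -0.172 at heights of 10 to 19. The ratio of the lines in that background was 2.51 with heights of at least 3, 4.40 with that FDR limit, 4.15 relative to the rest of chromosome 11, 6.09 over windows, 8.49 over the narrower segment and 1.98 at heights of 10 to 19. The causes of these shifts were not tested.

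Counts of regions called on 1 side depended on the threshold. In KYSE150 they fell for control from 15 to 2 with heights of at least 3, 2 with an FDR limit of 0.05 and 1 with 1e-05. For silenced they went from 12 to 1, 0 and 0 under the same settings and to 20 when peaks within 200 bp were merged. In KYSE510 they were 1 for control with an FDR limit of 1e-05 and 1 with merging within 200 bp, which gave 2 for silenced. Leaving out a library requires fewer calls and gave 17 to 65 for control and 19 to 68 for silenced in KYSE150, and 4 to 17 and 3 to 11 in KYSE510. Regions called in all 6 KYSE150 and no KYSE510 library numbered 1 with heights of at least 3, 1 with an FDR limit of 0.05 and 6 with merging within 200 bp. For all 6 KYSE510 and no KYSE150 library the counts were 48 and 33 under the first pair of settings (5.42 and 3.74% of the segment, where 3.45 and 1.70% of all regions were), and 8 with merging. With an FDR limit of 1e-05, added after seeing the data, they were 46 (19.3%, where 5.92% of all regions were), 3 for the opposite pattern and 24 for regions called in all 12 libraries.

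The replicate block did not change a call: 0 regions of the segment passed in the blocked limma fits, with smallest adjusted p of 0.879 in KYSE150, 0.528 in KYSE510 and 0.830 between lines. Same-numbered libraries correlated by only 0.00861 to 0.0880 in their deviations from group means, yet each correlated best with its own number. Whether shared numbers mark a batch cannot be told from the labels. The main fits and permutation tests left such a pairing out. Depth is unknown, which limits how absent peaks in the shorter KYSE510 lists can be read.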
